A study of Rattus norvegicus with 8 samples.

Results

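The genes described here are 10 markers of Kupffer cells, the resident macrophages of the liver, and of macrophages in general: Csf1r, Adgre1, Clec4f, Vsig4, Marco, Cd163, Cd68, Cd14, Mpeg1 and C1qa. They were chosen by symbol, each read from a probe set that carried a single symbol, and all 10 were measured among 14511 genes. Each of the 10 had 1 probe set. Whole-liver RNA was hybridised to 8 arrays of the type Affymetrix Rat Gene 1.0 ST, whose probes lie along the length of each transcript. All livers came from female Wistar rats, an outbred strain, and 4 groups of 2 arrays were compared. The first group was the liver remnant 8 h after partial hepatectomy (PH), in which the lateral lobes had been removed and the other lobes kept. The others were livers of healthy rats aged 2, 4 and 12 weeks without surgery. The labels do not state how old the operated rats were, and sham-operated rats were not analysed here. Surgery, age and time of day therefore cannot be told apart in the comparison of PH with 12-week livers. By their titles the arrays of a group are biological replicates, but the design calls them duplicates, so the p-values measure the spread between these arrays, which may in part be technical.

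Kupffer cells line the sinusoids, where they clear bacteria, endotoxin, damaged red cells and complement-coated particles from portal blood. They are known to seed the fetal liver from blood-forming precursors and to renew themselves after birth under colony-stimulating factor 1. After partial hepatectomy they are a known source of the cytokines that prime hepatocytes for division. RNA of whole liver holds mostly hepatocyte transcripts, so fewer macrophages and less of a transcript per macrophage cannot be told apart in these values.

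The macrophage genes did not move as a block. The level of a gene is its log2 value after robust multi-array averaging (RMA), so 1 unit is a doubling, and levels are compared only between arrays for the same gene. A gene was called changed where the limma contrast had a Benjamini-Hochberg adjusted p under 0.05 over all 14511 genes. Mpeg1 was higher in PH, 4-week and 12-week livers than in 2-week livers, and Cd14 was higher in 4-week and 12-week livers than in 2-week livers. No member passed the test between PH and 12-week livers. The other 8 members passed it in none of the 6 comparisons. The 12-week arrays lay farther apart than those of the other groups over the whole table, with 1838 genes at least 2-fold apart, against 432 to 621 in the other groups. For Marco and Vsig4 that gap was wider than for nearly all genes.

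**Figure D1:**
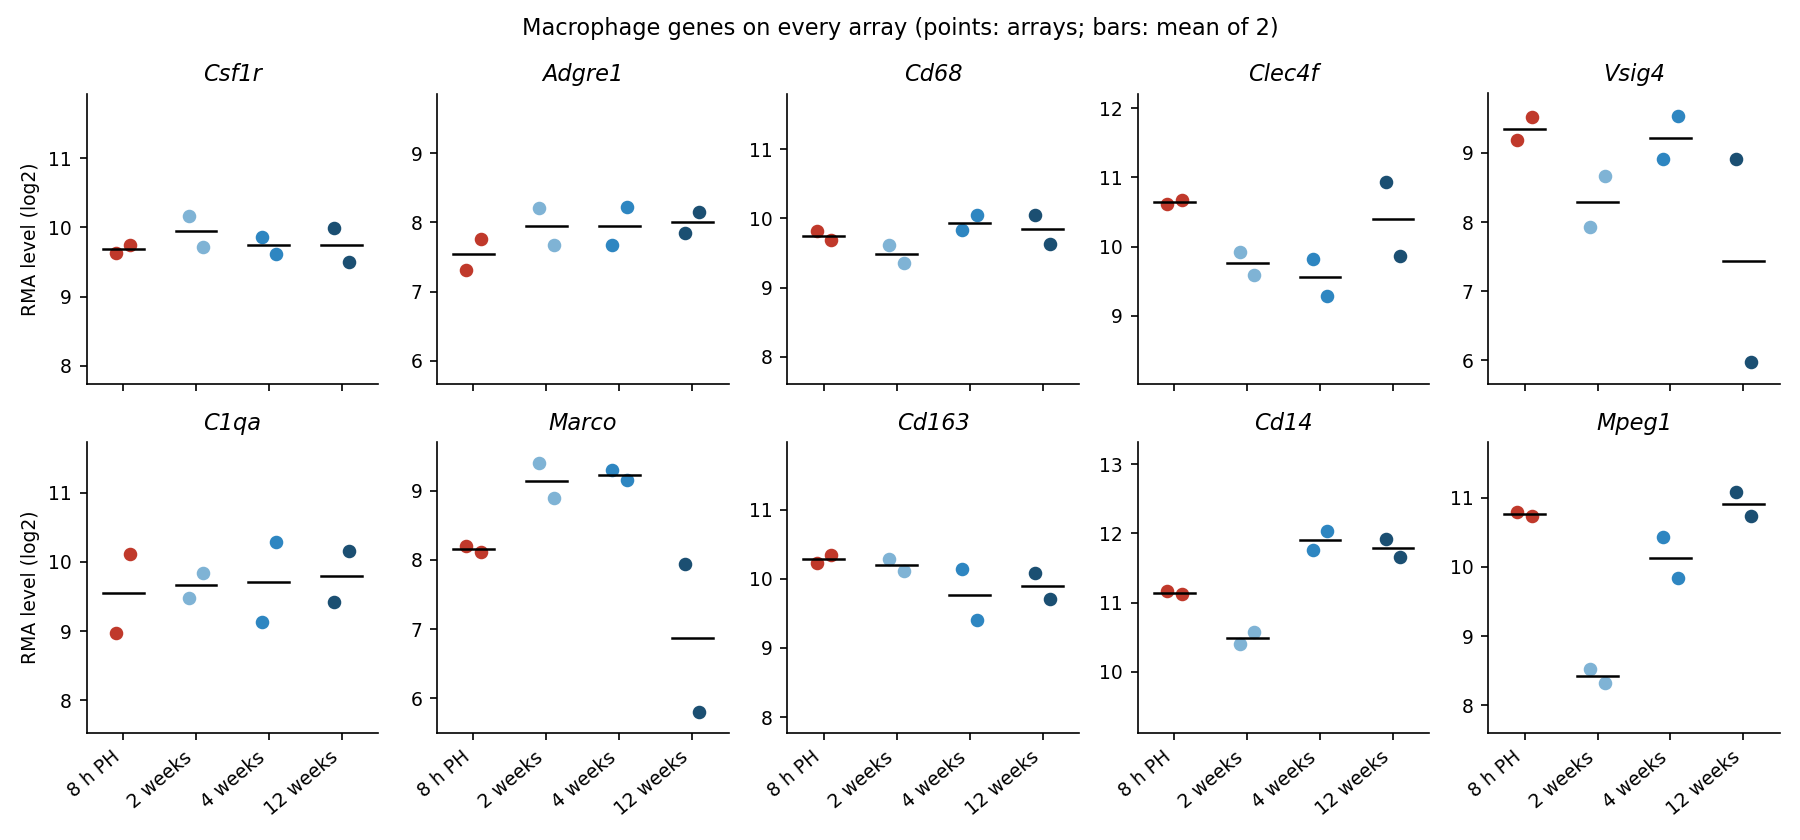
RMA level (log2) of each of the 10 macrophage genes on every array, by group. Points are arrays, bars are means of 2, and every panel spans the same height in log2 units. Mpeg1 lies between 8.33 and 8.53 on the 2-week arrays and between 9.84 and 11.07 on all others, while the 12-week arrays are 2.92 apart for Vsig4 and 2.13 apart for Marco.

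Mpeg1 encodes perforin-2, a pore-forming protein of the macrophage endosome that damages engulfed bacteria. It read 10.80 and 10.73 in PH livers, 8.53 and 8.33 at 2 weeks, 10.43 and 9.84 at 4 weeks, and 11.07 and 10.73 at 12 weeks. Both 2-week arrays were the lowest of the 8, and neither overlapped any other group. The 12-week level exceeded the 2-week level by 2.48 ± 0.26 (SE) on the log2 scale, or 5.57-fold (limma adjusted p = 0.00390). The PH level exceeded the 2-week level by 2.34 ± 0.26, or 5.05-fold (limma adjusted p = 0.00419). Both calls held under all 20 alternative settings and left-out arrays. By 4 weeks Mpeg1 was already 3.26-fold above its 2-week level, a difference of 1.71 ± 0.26 (limma adjusted p = 0.0399). That call was kept in 10 of the 20 alternatives, and leaving out any array of the PH, 2-week or 4-week groups ended it, with adjusted p between 0.0877 and 0.252. Between PH and 12-week livers Mpeg1 differed by -0.14 ± 0.26, with a 95% interval of -0.74 to 0.46. From high to low its means ran 12 weeks, PH, 4 weeks and 2 weeks, and of the neighbours in that order 4 and 2 weeks alone passed the test. For the 8 members called nowhere, no such neighbours could pass, since each such pair is 1 of the 6 comparisons.

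The stretch of 204 bases ahead of the outermost annotated start of Mpeg1 is given here because Mpeg1 changed most among the called members, and the 250 bases ahead of Cd68 are given beside it as those of a member that was called nowhere. Both come from RefSeq on the GRCr8 build and run 5′ to 3′ on the strand of the gene, Mpeg1 at chr1:218876644-218876847 on the plus strand and Cd68 at chr10:54882442-54882691 on the minus strand. The sequences were searched for GAGGAA and its reverse complement TTCCTC, the core that the macrophage factor PU.1 (Spi1) binds, and capitals mark a match.
Mpeg1: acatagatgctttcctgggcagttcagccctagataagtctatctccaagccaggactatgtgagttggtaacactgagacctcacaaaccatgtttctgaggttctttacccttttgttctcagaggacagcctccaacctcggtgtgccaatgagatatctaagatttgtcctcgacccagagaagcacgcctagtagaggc
Cd68: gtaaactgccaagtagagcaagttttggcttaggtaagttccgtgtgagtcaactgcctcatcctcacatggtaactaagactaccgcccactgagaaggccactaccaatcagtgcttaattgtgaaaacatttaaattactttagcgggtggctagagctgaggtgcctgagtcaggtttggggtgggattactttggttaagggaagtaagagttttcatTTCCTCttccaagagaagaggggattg
The core lay 27 bases ahead of the Cd68 start, on the opposite strand, and these letters were not found in the Mpeg1 window. Over windows of 250 bases, 5 of the 10 members held the core (Cd68, Marco, Csf1r, Cd14 and Adgre1), against 23.3% of 33469 windows of all genes. These windows were not trimmed at the outermost annotated start. Those of Marco, Cd14, Csf1r and Adgre1 were set on starts 9085, 251, 227 and 42 bases downstream of it. The Marco and Cd14 windows thus lay inside the annotated gene, and the Csf1r matches reached into it. Only the matches of Cd68 and Adgre1 lay wholly ahead of the outermost start. Of the members called nowhere, Cd163, Clec4f, Vsig4 and C1qa held no core, while Cd14, which was called, held it. The 2 sequences printed here therefore do not stand for called and uncalled members. A match of letters describes the window and shows no binding.

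Cd14 is the co-receptor that hands endotoxin to Toll-like receptor 4 on macrophages. Hepatocytes are also known to make it, so its level in whole liver is not read from macrophages alone. It read 11.17 and 11.12 in PH livers, 10.40 and 10.57 at 2 weeks, 11.76 and 12.03 at 4 weeks, and 11.91 and 11.66 at 12 weeks. The 2-week arrays were again the lowest, the PH arrays lay between them and the older groups, and the 4-week and 12-week arrays overlapped. Cd14 was 2.47-fold higher at 12 than at 2 weeks, a difference of 1.30 ± 0.22 (limma adjusted p = 0.0234), and 2.66-fold higher at 4 than at 2 weeks, a difference of 1.41 ± 0.22 (limma adjusted p = 0.0414). The first call was kept in 13 of the 20 alternatives. It was lost without either PH array, either 2-week array or the first 12-week array, with adjusted p between 0.0578 and 0.166. The second was kept in 11 and was lost without any array of the PH, 2-week or 4-week groups, with adjusted p between 0.111 and 0.297.

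In PH livers Cd14 lay below both 12-week arrays, with a difference of -0.65 ± 0.22 that did not pass the adjusted test (limma adjusted p = 0.638). It lay below both 4-week arrays, with a difference of -0.76 ± 0.22 (adjusted p = 0.268), and above both 2-week arrays, with a difference of 0.66 ± 0.22 (adjusted p = 0.250). From high to low its means ran 4 weeks, 12 weeks, PH and 2 weeks, and no neighbouring pair in that order passed the test.

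Marco is a scavenger receptor with a collagen-like stalk that binds bacteria and particles. It read 8.20 and 8.11 in PH livers, 9.39 and 8.90 at 2 weeks, 9.31 and 9.16 at 4 weeks, and 7.94 and 5.81 at 12 weeks. No array of the PH or 12-week groups reached those of the 2 younger groups, and both PH arrays lay above both 12-week arrays. The difference was -2.27 ± 0.57 between 12 and 2 weeks (limma adjusted p = 0.112) and -2.36 ± 0.57 between 12 and 4 weeks (adjusted p = 0.461), and neither passed. The gap of 2.13 between the 12-week arrays was wider than that of 99.4% of genes in that group. With the first 12-week array left out the difference from 2 weeks was -3.34, and with the second left out it was -1.21. The difference from 4 weeks was -3.42 without the first and -1.29 without the second. Each of these fits left 1 array at 12 weeks, so the gap between the 12-week arrays did not enter their spread. PH livers stood above 12-week livers by 1.28 ± 0.57, with a 95% interval of -0.03 to 2.60 (adjusted p = 0.845), and by 0.22 to 2.35 over the left-out arrays.

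Vsig4, also called CRIg, is a complement receptor of tissue-resident macrophages that captures bacteria coated with C3 fragments. It read 9.18 and 9.51 in PH livers, 7.92 and 8.66 at 2 weeks, 8.91 and 9.53 at 4 weeks, and 8.90 and 5.98 at 12 weeks. Its lowest value was on the second 12-week array, as for Marco, while the first 12-week array lay among the values of the other groups. That gap of 2.92 was wider than that of 99.9% of genes in the 12-week group. PH livers stood above 12-week livers by 1.90 ± 0.79, with a 95% interval of 0.10 to 3.70, and did not pass (limma adjusted p = 0.788). Over the left-out arrays this difference ran between 0.44 and 3.36. The difference between 12 and 2 weeks was -0.85, and its sign turned with the array left out, to 0.61 without the second 12-week array and to -2.31 without the first.

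The median level of 1282 genes of olfactory, vomeronasal, trace amine and taste receptors was 4.74 on the first 12-week array and 3.92 on the second. The PH arrays read 4.66 and 4.17 for this median, and the 2-week and 4-week arrays ran from 4.02 to 4.07. With that median as a covariate, Marco differed between 12 and 2 weeks by -2.80 (adjusted p = 0.00619) and between 12 and 4 weeks by -2.93 (adjusted p = 0.0305). Vsig4 was called in neither of those comparisons with the covariate. Between PH and 12 weeks, with the covariate, Marco differed by 1.12 and Vsig4 by 1.70, and neither passed (limma adjusted p = 0.24 and 0.26). The part of the receptor-gene median in the values of Marco and Vsig4 was not tested further.

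Clec4f is a C-type lectin that in rodents marks Kupffer cells. It read 10.61 and 10.68 in PH livers, 9.92 and 9.59 at 2 weeks, 9.83 and 9.29 at 4 weeks, and 10.94 and 9.86 at 12 weeks. Both PH arrays lay above all arrays of the 2 younger groups and inside the span of the 12-week arrays. The difference was 1.09 ± 0.37 between PH and 4 weeks (limma adjusted p = 0.342) and 0.89 ± 0.37 between PH and 2 weeks (adjusted p = 0.388). Against 12 weeks it was 0.25 ± 0.37.

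Csf1r, the receptor for colony-stimulating factor 1 on which macrophage survival rests, read 9.64 and 9.75 in PH livers, 10.17 and 9.72 at 2 weeks, 9.87 and 9.62 at 4 weeks, and 9.99 and 9.50 at 12 weeks. All 4 groups overlapped, and PH differed from 12 weeks by -0.06 with a 95% interval of -0.66 to 0.55. Adgre1, which encodes the surface protein known as F4/80 in mice, read 7.31 and 7.77 in PH livers, 8.20 and 7.68 at 2 weeks, 7.68 and 8.22 at 4 weeks, and 7.85 and 8.16 at 12 weeks. Both of its PH arrays lay below both 12-week arrays, with a difference of -0.46 ± 0.30 (adjusted p = 1), and the 3 ages overlapped.

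Cd68, a glycoprotein of the lysosome and endosome of phagocytes, read 9.81 and 9.69 in PH livers, 9.61 and 9.36 at 2 weeks, 9.83 and 10.04 at 4 weeks, and 10.05 and 9.63 at 12 weeks. Its 2-week arrays lay below all others, yet the largest difference, between 4 and 2 weeks, was 0.45 ± 0.24 (limma adjusted p = 0.793). Cd163, the receptor that clears haemoglobin bound to haptoglobin, read 10.23 and 10.34 in PH livers, 10.28 and 10.12 at 2 weeks, 10.14 and 9.40 at 4 weeks, and 10.08 and 9.71 at 12 weeks. Both PH arrays lay above both 12-week arrays, with a difference of 0.39 ± 0.29 (adjusted p = 1), and the 2-week arrays overlapped those of PH.

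C1qa encodes a chain of C1q, the complement protein that starts the classical pathway and that macrophages make. It read 8.97 and 10.12 in PH livers, 9.48 and 9.84 at 2 weeks, 9.13 and 10.29 at 4 weeks, and 9.43 and 10.16 at 12 weeks. Every group overlapped every other. The gap between arrays reached 1.15 in PH livers and 1.16 at 4 weeks, wider than for 98.2% and 97.5% of genes in those groups. The 95% interval of its difference between PH and 12 weeks ran from -1.37 to 0.88.

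**Figure D2:**
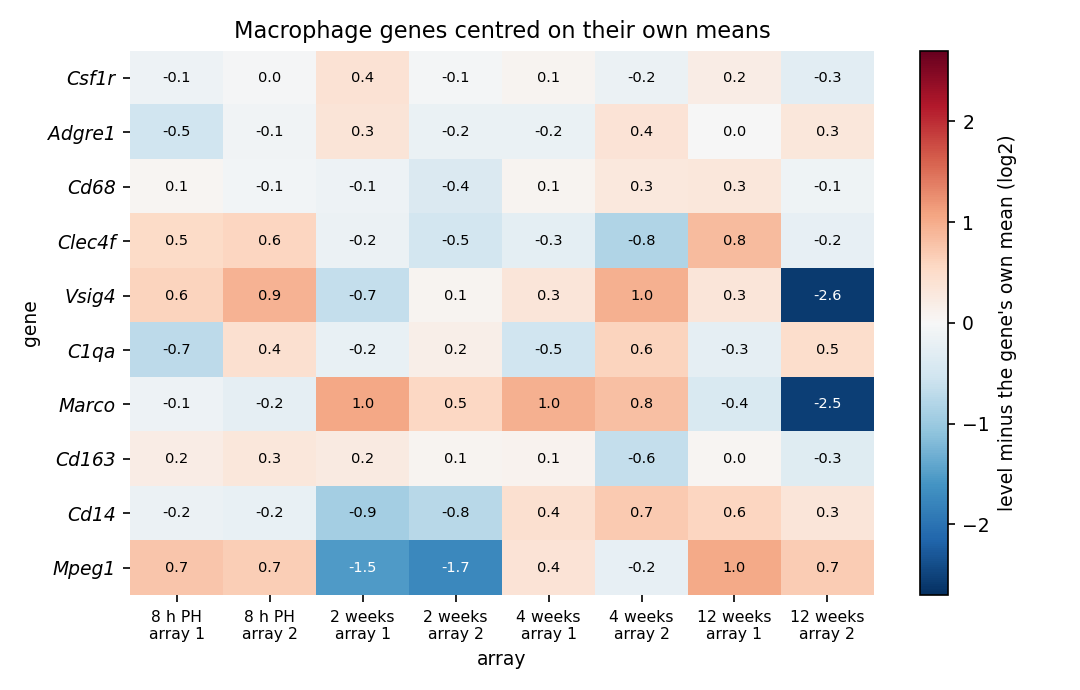
Each gene's level on each array minus that gene's own mean over the 8 arrays, in log2 units, with arrays as columns in the order PH, 2, 4 and 12 weeks. The darkest blue cells are Vsig4 and Marco on the second 12-week array and Mpeg1 on both 2-week arrays.

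Between PH and 12-week livers 0 of the 10 members were called by limma and 2 had an unadjusted p under 0.05 (Vsig4 higher and Cd14 lower in PH), against 0.0345% of all genes called and 6.01% at that unadjusted p. In that comparison 3 members (Cd163, Marco and Vsig4) lay higher and 2 (Cd14 and Adgre1) lower in PH with no overlap of arrays, and 29.0% of all genes did not overlap. The median difference was -0.07 over the members and 0.00 over all genes. Between PH and 4 weeks 0 members were called and 3 had an unadjusted p under 0.05, against 0.31% and 10.2% of all genes. Arrays did not overlap for 3 members higher in PH (Cd163, Clec4f and Mpeg1) and 3 lower (Cd68, Marco and Cd14), against 44.1% of all genes. Between PH and 2 weeks 1 member, Mpeg1, was called, higher in PH, against 2.16% of all genes called and 0.793% called higher. An unadjusted p under 0.05 was reached by 3 members, against 11.6% of all genes. Arrays did not overlap for 6 members, 5 of them higher in PH and Marco lower, against 46.8% of all genes. The median difference was 0.18 over the members and 0.03 over all genes.

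Across ages, 2 members (Mpeg1 and Cd14) were called, both higher at 12 than at 2 weeks, against 2.23% of all genes called and 0.937% called higher. An unadjusted p under 0.05 was reached by 3 members, Marco being the third and lower, against 11.1% of all genes, and arrays did not overlap for 5 members, against 34.4%. The same 2 members were called higher at 4 than at 2 weeks, against 0.455% of all genes called and 0.303% called higher. They were also the 2 members with an unadjusted p under 0.05 there, against 7.24% of all genes, and arrays did not overlap for 4 members, against 40.2%. Both comparisons share the 2-week arrays. Between 12 and 4 weeks 0 members were called by limma and 3 had an unadjusted p under 0.05 (Marco lower, Clec4f and Mpeg1 higher at 12 weeks), against 0.11% and 4.47% of all genes, and arrays did not overlap for 4 members, against 25.1%. Member medians were 0.09 between 12 and 2 weeks, 0.03 between 12 and 4 weeks and 0.07 between 4 and 2 weeks, all near the medians of all genes.

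**Figure D3:**
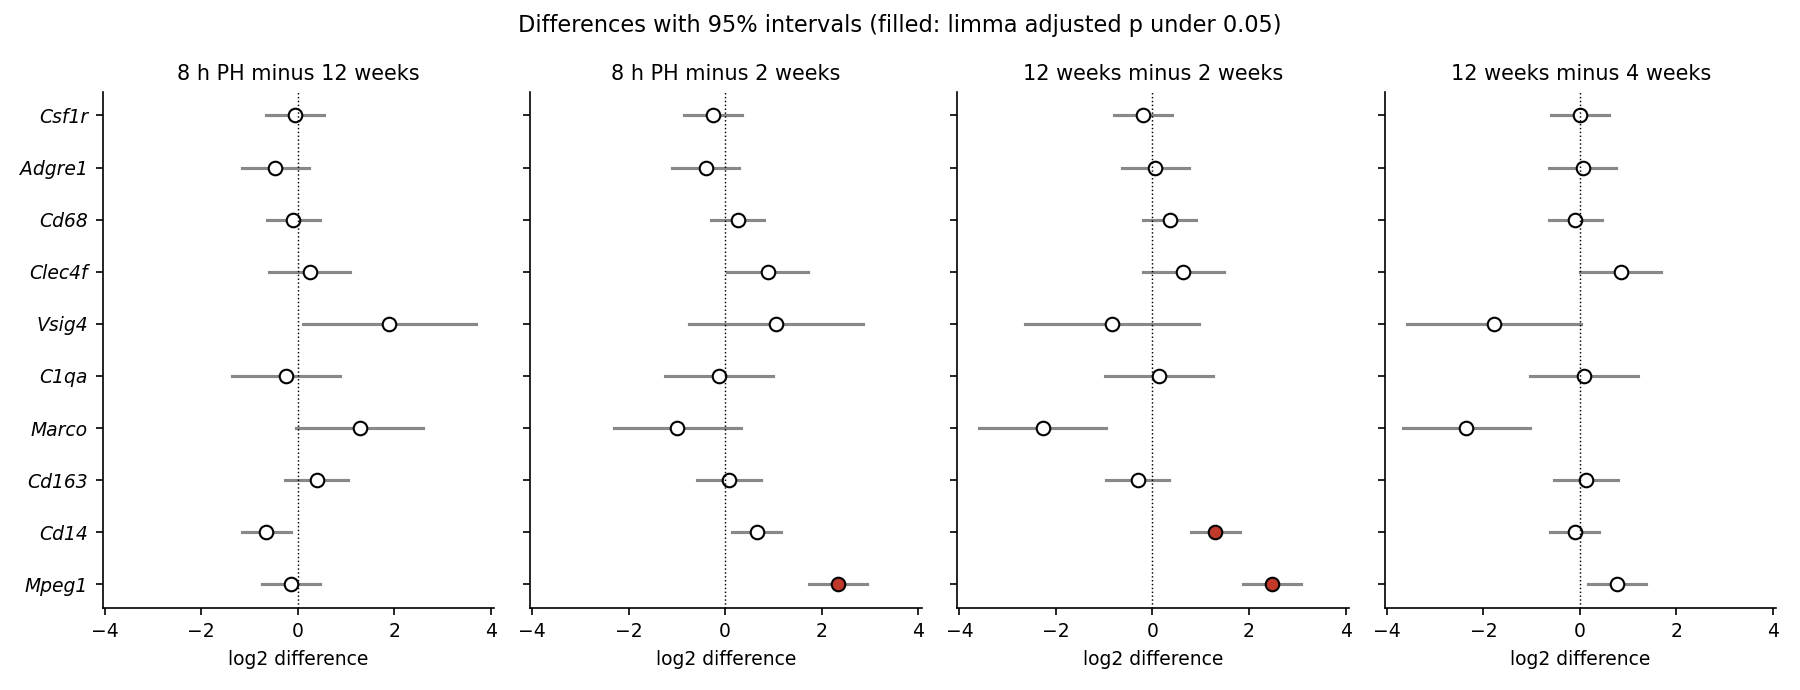
Differences in level of the 10 macrophage genes in 4 of the 6 comparisons, in log2 units, with 95% intervals from limma. Filled points passed an adjusted p under 0.05: Mpeg1 at 2.34 between PH and 2 weeks, and Mpeg1 at 2.48 and Cd14 at 1.30 between 12 and 2 weeks.

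The members also varied little together from array to array. Over the 8 arrays Pearson's r of the 45 pairs of members ran from -0.63 for Cd163 with Cd14 to 0.81 for Cd68 with Cd14, with a median of 0.05, and 25 pairs were above 0. Cd14 with Mpeg1 gave 0.72 and Marco with Vsig4 gave 0.69. These values describe 8 arrays that fall into 4 groups, and each pair shares the same RNA. Averaged over the members after centring each on its own mean, the level was highest on the first 12-week array, at 0.27, and lowest on the second, at -0.43. The members themselves followed this profile unevenly, with r from -0.24 for Adgre1 to 0.83 for Vsig4. The non-members most like the profile, among the 7256 genes in the upper part of the level range, were Rab5c and Thpol1 with r = 0.88 each, Gpr27 with 0.87, Siah2 with 0.86 and Cyp3a23-3a1 with 0.84. They were picked for the highest r among those genes, and no test was made.

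Further genes of macrophage biology were read from 9 lists. Each list was counted in pairs of a gene and a comparison, and of such pairs over all genes 0.882% were called and 8.44% had an unadjusted p under 0.05. Among macrophage transcription factors 1 of 11 measured genes was called, in 1 of 66 pairs, and 10 pairs had an unadjusted p under 0.05. Runx1, a factor of blood-cell development, read 8.66 and 8.74 in PH livers, 6.91 and 6.94 at 2 weeks, 7.42 and 7.10 at 4 weeks, and 7.18 and 6.80 at 12 weeks. Both PH arrays stood above all 6 others. Runx1 was higher in PH than in 2-week livers by 1.78 ± 0.23 (limma adjusted p = 0.00828, kept in 17 of 20 alternatives), and its differences of 1.71 from 12 weeks and 1.44 from 4 weeks had adjusted p of 0.0693 and 0.0646. Its call was lost without either PH array or the first 2-week array, with adjusted p between 0.0739 and 0.0829.

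Among scavenger and phagocytic receptors 2 of 72 pairs were called and 5 had an unadjusted p under 0.05. The 1 gene of 12 that was called was Cd36, a receptor for fatty acids and oxidised lipoproteins that hepatocytes and endothelium also carry. Cd36 read 10.30 and 11.00 in PH livers, 8.86 and 8.46 at 2 weeks, 10.40 and 10.78 at 4 weeks, and 10.17 and 10.91 at 12 weeks. As for Mpeg1, both 2-week arrays stood below all 6 others. It was higher in PH than in 2-week livers by 1.99 ± 0.35 (limma adjusted p = 0.0272) and at 12 than at 2 weeks by 1.88 ± 0.35 (adjusted p = 0.0334), each kept in 10 of 20 alternatives. The first call was lost without any array of the PH, 2-week or 4-week groups (adjusted p between 0.0561 and 0.187). The second was lost without any 2-week or 4-week array or the second 12-week array (adjusted p between 0.0636 and 0.166).

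Among genes of heme and iron handling 1 of 9 was called, in 1 of 54 pairs, and 5 pairs had an unadjusted p under 0.05. Hmox1, the heme oxygenase that Kupffer cells use on heme from old red cells, read 9.97 and 9.98 in PH livers, 9.61 and 9.50 at 2 weeks, 8.75 and 9.71 at 4 weeks, and 7.94 and 8.12 at 12 weeks. The 12-week arrays were the lowest and the PH arrays the highest. The level of Hmox1 in whole liver is not read from macrophages alone. Hmox1 was lower at 12 than at 2 weeks, with a difference of -1.52 ± 0.31 (limma adjusted p = 0.0499, kept in 7 of 20 alternatives). It was lost without any array of the PH, 2-week or 12-week groups, with adjusted p between 0.073 and 0.276. It stood higher in PH than in 12-week livers by 1.95 ± 0.31 without passing the adjusted test (adjusted p = 0.117).

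No gene was called by limma in any of the 6 comparisons in the other 6 lists. These were Kupffer residence (7 genes measured), ligands and receptors of the colony-stimulating factors (7), C1q partners and complement receptors (9), endotoxin recognition (8), the lysosome of phagocytes (11) and macrophage cytokines and chemokines (16). An unadjusted p under 0.05 was reached by 3 of 42, 2 of 42, 5 of 54, 10 of 48, 4 of 66 and 16 of 96 pairs of those lists, in that order. Cxcl1, a chemokine that draws neutrophils, read 9.76 and 9.74 in PH livers, 6.71 and 7.76 at 2 weeks, 8.03 and 10.34 at 4 weeks, and 7.61 and 6.79 at 12 weeks. It stood 2.55 ± 0.68 higher in PH than in 12-week livers (adjusted p = 0.429), with the second 4-week array above both PH arrays. Lbp, which carries endotoxin to Cd14, read 13.05 and 12.52 in PH livers, 13.13 and 13.46 at 2 weeks, 12.65 and 12.88 at 4 weeks, and 12.38 and 11.43 at 12 weeks. Its difference between 12 and 2 weeks was -1.39 ± 0.35 (adjusted p = 0.105), opposite in sign to that of Cd14. The cell source of Lbp cannot be told from whole liver, so its difference with age is not read as one of macrophages. C3ar1, a complement receptor of myeloid cells, was on its 2-week arrays, at 6.98 and 6.94, below all 6 others, and differed between 4 and 2 weeks by 0.90 ± 0.24 (adjusted p = 0.269). Lgals3, the lectin galectin-3 of activated macrophages, differed between 12 and 4 weeks by -1.79 ± 0.36 (adjusted p = 0.267). Both PH arrays stood above all 6 others for Irak4 of the endotoxin list (7.90 and 7.86) and Il18bp of the residence list (9.75 and 9.72). PH exceeded 2 weeks by 1.18 ± 0.29 for Irak4 and 0.92 ± 0.22 for Il18bp (limma adjusted p = 0.096 and 0.087). Of the same lists, Lbp and Folr2 did not stand apart in PH in this way.

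**Figure D4:**
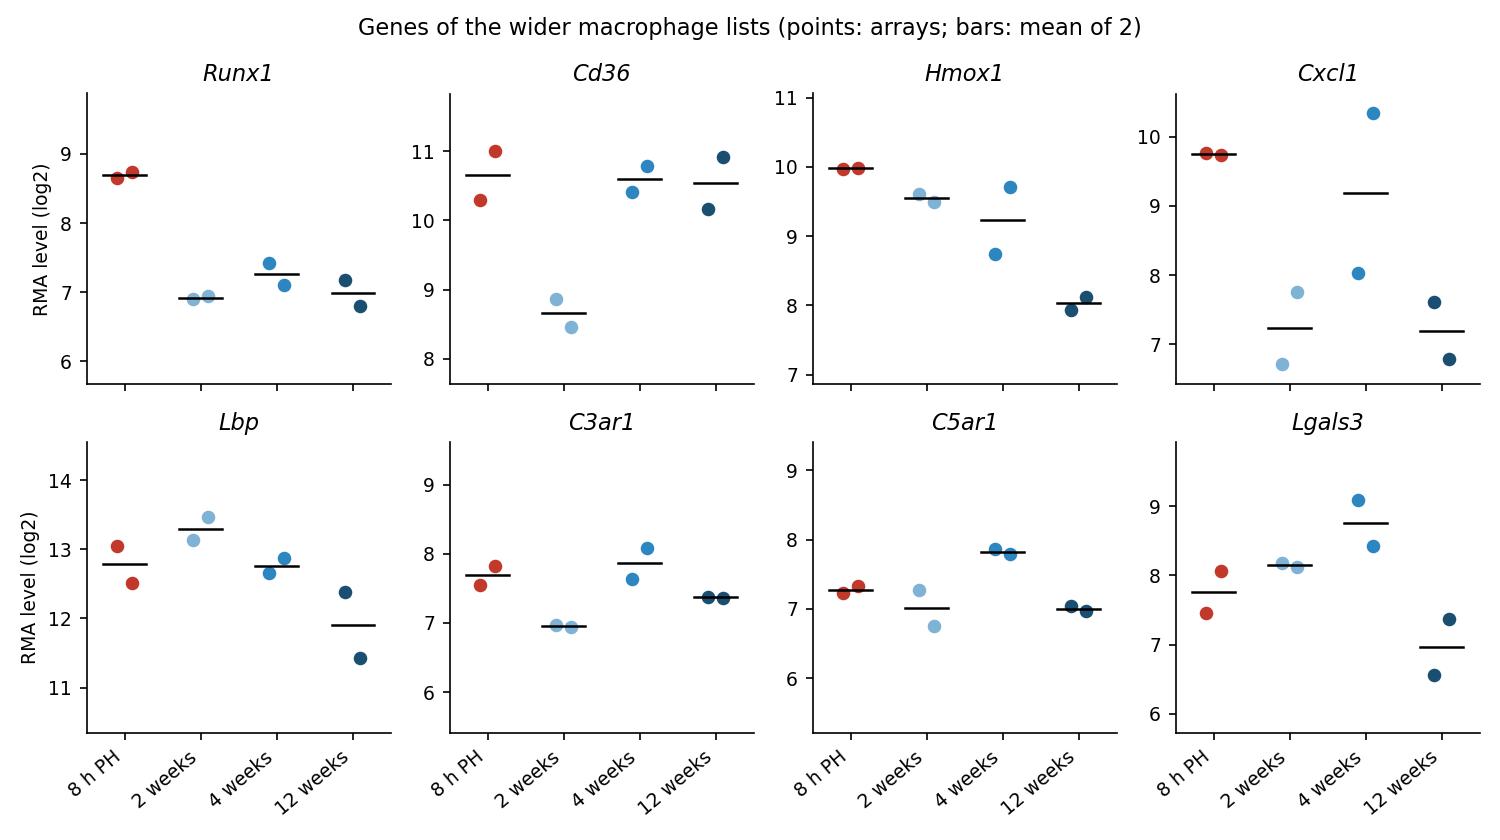
RMA level (log2) on every array of 8 genes from the wider macrophage lists, by group, drawn as points with the mean of 2 as a bar. Runx1 stands higher on both PH arrays than on any other array, Cd36 lower on both 2-week arrays, and Hmox1 lower on both 12-week arrays.

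Markers of other cell types were also called in PH and 12-week livers against 2-week livers. Of 7 measured erythroid markers 3 (Alas2, Ahsp and Slc4a1) were called lower in PH than in 2-week livers and the same 3 lower at 12 than at 2 weeks, and Alas2 was also called lower in PH than in 4-week livers. Their summed level, the log2 of the sum of the linear values, was 8.28 to 8.45 in PH livers, 10.49 to 11.35 at 2 weeks, 9.91 to 10.19 at 4 weeks and 8.75 to 8.86 at 12 weeks. Of 8 stellate cell markers 3 (Hgf, Reln and Des) were called lower at 12 than at 2 weeks and Reln was called lower in PH than in 2-week livers. Of 6 endothelial markers 1, Oit3, was called lower in PH than in 2-week livers. In pairs of a gene and a comparison, 7 of 42 erythroid, 4 of 48 stellate and 1 of 36 endothelial pairs were called. Over all genes 0.882% of such pairs were called. An unadjusted p under 0.05 was reached by 23, 23 and 4 pairs of these lists, against 8.44% over all genes. Against 2 weeks Alas2 stayed called in 20 alternatives for PH and in 19 for 12 weeks, while each of the other calls of these 3 lists stayed in 8 to 18 and was lost without at least 1 array of a compared group. The 12-week calls of Alas2 and Hgf were lost without the first 2-week array (adjusted p = 0.0717 and 0.119), and that of Hgf also without the second (adjusted p = 0.0818). Those of Ahsp, Slc4a1, Des and Reln were lost without either PH array, the first 2-week array or either 12-week array (adjusted p between 0.0511 and 0.259), that of Des also without the second 2-week array (adjusted p = 0.146), and those of Slc4a1 and Reln also without either 4-week array (adjusted p = 0.0645 and 0.0671). The PH calls against 2 weeks of Ahsp, Slc4a1, Reln and Oit3 were lost without either PH array (adjusted p between 0.0616 and 0.287). All of these but that of Slc4a1 were also lost without the first 2-week array (adjusted p between 0.183 and 0.265), that of Oit3 also without the second (adjusted p = 0.078), and those of Reln and Oit3 also without either 4-week array (adjusted p = 0.069 and 0.063). The PH call of Alas2 against 4 weeks was lost without any array of the PH, 2-week or 4-week groups, with adjusted p up to 0.285. In 10 neutrophil markers 0 were called by limma and 16 of 60 pairs had an unadjusted p under 0.05, against 8.44% over all genes. The summed level of the neutrophil markers was 8.85 to 9.01 in PH livers, 9.18 to 11.98 at 2 weeks, 8.92 to 9.10 at 4 weeks and 8.42 to 8.62 at 12 weeks. The part of these cells in the levels of Mpeg1 and Cd14 was not tested.

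In 8 pan-leukocyte markers 0 were called by limma, 5 of 48 pairs had an unadjusted p under 0.05, and the summed level was 11.23 to 11.29 in PH livers, 11.20 to 12.04 at 2 weeks, 11.78 to 11.80 at 4 weeks and 11.30 to 11.67 at 12 weeks. The lists of blood monocytes (8 genes), dendritic cells (7), lymphocytes (10), cholangiocytes (5) and hepatocytes (8) also gave 0 calls by limma, with an unadjusted p under 0.05 in 1 of 48, 4 of 42, 10 of 60, 1 of 30 and 1 of 48 pairs. Over all genes 8.44% of such pairs had an unadjusted p under 0.05.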

How the data were processed

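Total RNA of rat liver was hybridised to Affymetrix Rat Gene 1.0 ST arrays, and the submitters' processing notes name RMA and Affymetrix Expression Console as the tools with which the authors made the deposited log2 values. For versions, filters and genome build, nothing is stated there. Array medians lay between 5.98 and 6.17, and the number of arrays limits the precision. Of 29214 probe sets, 15316 carried 1 symbol in the platform annotation, 317 several and 13581 none, and 15279 single symbols matched a gene of the RefSeq table (GRCr8). Where a gene had several probe sets (528 genes) the one with the highest mean was kept, which left 14511 genes.

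All groups entered 1 linear model over the 8 arrays (lmFit and eBayes of limma 3.58.1 under R 4.3.3), with 4 residual degrees of freedom and a prior of 4.27. Differences are means of log2 values with their standard error, tests were two-sided, and p-values were adjusted by Benjamini-Hochberg over all genes in each of 6 comparisons. On simulated data with the spread of the comparison of 12 with 2 weeks, over 14511 genes, the same steps found 18.0% of changes of 1 log2 unit and 94.4% of changes of 2. These shares hold for that comparison, in which 323 genes were called, and are not given for the others. Between PH and 12 weeks, where 5 genes were called, Hmox1 differed by 1.95 and did not pass (limma adjusted p = 0.117).

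The 10 members and 19 further lists (188 entries, 167 measured) were chosen with earlier results of these data known. From each list the text could name the genes that passed in any comparison, at most 4, or the 2 with the smallest adjusted p where none passed. Alternatives changed the gene filter, the probe sets, the scaling, the eBayes settings, array weights, a receptor-gene covariate, the threshold and a replicate block, or left out 1 array. The labels do not say whether the replicate numbers pair arrays across groups, and the numbers were not taken to pair them. The upstream windows were those of RefSeq, searched by exact match on both strands. No sample, detection call or scan date beyond these was used here.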

Additional observations from a re-analysis of the deposited data

How the results depend on the processing

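Each count and difference was recomputed under 12 other settings and without each of the 8 arrays, as far as the gene stayed in the table. Between PH and 12 weeks, PH and 4 weeks, and PH and 2 weeks the members called were 0, 0 and 1 under every one of these. Between 12 and 2 weeks the 2 calls became 1 with array weights, 1 at an adjusted p under 0.01 and 3 with the receptor-gene covariate, where Marco also passed, and ranged from 1 to 3 over the left-out arrays. Between 12 and 4 weeks the 0 calls became 1 with the receptor-gene covariate and ranged from 0 to 2. Between 4 and 2 weeks the 2 calls became 0 with every probe set tested, 1 with median centring, 1 with quantile normalization, 1 with an eBayes trend and 0 at an adjusted p under 0.01, and ranged from 0 to 2. Over the whole table the calls ranged from 1 to 41 between PH and 12 weeks, where 5 were made, and from 101 to 515 between 12 and 2 weeks, where 323 were made. They ranged from 6 to 232, 72 to 587, 5 to 30 and 26 to 140 in the comparisons of PH with 4 weeks, PH with 2 weeks, 12 with 4 weeks and 4 with 2 weeks, where 45, 313, 16 and 66 were made. The cause of these shifts was not tested.

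The replicate number as a block left the number of members called as it was in 5 comparisons and moved it to 3 between 12 and 2 weeks, where Marco also passed (-2.27, adjusted p = 0.0278). The deviations of arrays with the same number correlated at 0.02 between 2 and 12 weeks and at 0.18 to 0.57 in the other pairs of groups. Since the labels tie no number to a shared animal or day and not every correlation was over 0.1, the numbers were not taken to pair the arrays. The block raised the calls over the whole table to 41 between PH and 12 weeks and to 515 between 12 and 2 weeks.

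Differences of members called nowhere in their comparison changed sign as follows. With median centring Csf1r between PH and 4 weeks became 0.0067, and Adgre1 and C1qa between 4 and 2 weeks became -0.063 and -0.022. With the receptor-gene covariate Vsig4 and C1qa between PH and 4 weeks became -0.79 and 0.33, Cd163 and C1qa between PH and 2 weeks became -0.025 and 0.34, Csf1r between 12 and 4 weeks became -0.11, and Adgre1 between 4 and 2 weeks became -0.0088. Csf1r between 12 and 4 weeks became -0.0030 with 75th percentile scaling and -0.0042 with quantile normalization. The cause of these turns was not tested. No scaling moved the median of all genes by as much as 0.1.

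Over the left-out arrays these signs also turned. Between PH and 12 weeks Cd68 ranged from -0.30 to 0.12, Clec4f from -0.29 to 0.79, Csf1r from -0.30 to 0.19, Mpeg1 from -0.31 to 0.032 and C1qa from -0.82 to 0.33. Between PH and 4 weeks Vsig4 ranged from -0.18 to 0.43, Csf1r from -0.17 to 0.068, C1qa from -0.74 to 0.41 and the cholangiocyte marker Spp1 from -4.96 to 0.98, and between PH and 2 weeks C1qa ranged from -0.69 to 0.45. Between 12 and 2 weeks Vsig4 ranged from -2.31 to 0.61, Csf1r from -0.44 to 0.048, Adgre1 from -0.20 to 0.32 and C1qa from -0.24 to 0.49. Between 12 and 4 weeks Cd68 ranged from -0.30 to 0.11, Cd163 from -0.25 to 0.49, Csf1r from -0.24 to 0.25, Cd14 from -0.24 to 0.024, Adgre1 from -0.21 to 0.32 and C1qa from -0.50 to 0.66. Between 4 and 2 weeks Marco ranged from -0.16 to 0.33, Clec4f from -0.47 to 0.068, Csf1r from -0.42 to 0.026, Adgre1 from -0.26 to 0.27 and C1qa from -0.53 to 0.62.

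On the data simulated for 12 against 2 weeks most changes of 1 log2 unit were missed, and the other comparisons were not simulated. With 2 arrays a group, a member that was not called is not shown to be alike between groups. Where 1 array of a group is left out, the other is assumed to vary like the rest.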
